A study of Saccharomyces cerevisiae with 6 samples.

Results

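The promoters of the cytosolic ribosomal protein (RP) genes of budding yeast (Saccharomyces cerevisiae) were examined in 3 CUT&RUN peak lists. The RP genes were chosen by symbol from the R64 gene table (RPL or RPS with a number and an optional A or B, plus RPP0, RPP1A, RPP1B, RPP2A and RPP2B). The rule found 137 of the 6002 protein-coding genes, 81 for the large and 56 for the small ribosomal subunit. An RP gene was counted in a list when the summit of a peak lay within 1000 bp upstream of its annotated start. The length of the gene model was a multiple of 3 for 96.4% of all genes, as for models without UTRs, but for 58.4% of the RP genes. Many RP genes hold an intron, which adds to the length of the model, so for them this length does not show whether the start is the first coding base.

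CUT&RUN releases DNA next to an antibody-bound protein with a tethered micrococcal nuclease, and peaks mark places where the released fragments pile up. The study concerned Pdr1 and Pdr3, related zinc-cluster activators of drug resistance genes, in cells grown in YPD medium at 30°C. Both Pdr1 lists (replicates 1 and 2) came from the strain labelled YRP10, and the single Pdr3 list from the strain labelled Pdr3_3xmyc. All 3 used a c-Myc antibody. The epitope tag of YRP10 is not stated, and it is not stated whether its replicates came from separate cultures. The 3 IgG libraries of the series were not analysed here, so no control antibody value stands beside any peak, and what signal an untagged strain would give at these promoters was not tested.

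Ribosomal protein genes are among the most actively transcribed genes of growing yeast. Most are driven by Rap1, which binds their promoters together with Fhl1, Ifh1, Sfp1 and often the HMG-box protein Hmo1, and their output follows nutrient supply. Many RP genes exist as a pair of copies, A and B, that encode identical or nearly identical proteins but have separate promoters. No sequence was used here, so binding sites for Pdr1, Pdr3 or Rap1 in these promoters were not looked for.

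The lists held 792 peaks (replicate 1), 485 peaks (replicate 2) and 7 peaks (Pdr3). Fold enrichment is the value the authors' peak caller gave to each peak, and its median over all peaks was 4.86 in replicate 1 and 4.85 in replicate 2. The files hold no read counts, so sequencing depth is unknown, and a missing peak means only that none passed the authors' threshold.

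A large part of the RP promoters carried a Pdr1 peak. In replicate 1 a summit lay upstream of 97 of the 137 RP genes (70.8%, 95% Wilson interval 62.7 to 77.8%), against 15.5% of all protein-coding genes. In replicate 2 the count was 73 (53.3%, 45.0 to 61.4%), against 10.2% of all genes. Both lists had a summit for 71 RP genes (51.8%, 43.5 to 60.0%), against 8.95% of all genes. At least 1 of them did for 99 (72.3%), against 16.8%. The intervals cover counting error only and treat genes as independent, which neighbouring genes with a common peak are not. The Pdr3 list had no summit upstream of any RP gene, and 0.167% of all genes had one.

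The replicate 1 share rests in part on the longer list. Only the 485 replicate 1 peaks of highest fold enrichment were then kept, the same number as in replicate 2. With these, 55 RP genes (40.1%) had a summit, against 9.90% of all genes. The number with a summit in both lists was then 41, or 29.9%, against 6.06% of all genes. In replicate 1 the RP gene peaks had a lower median fold enrichment than the other peaks (4.62 against 4.90). Their median −log10 q was higher (17.7 against 16.5), and no cut by rank of −log10 q is given. With peaks of a −log10 q of at least 10 only, 49 RP genes (35.8%) were in both lists, against 6.63% of all genes.

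**Figure D1:**
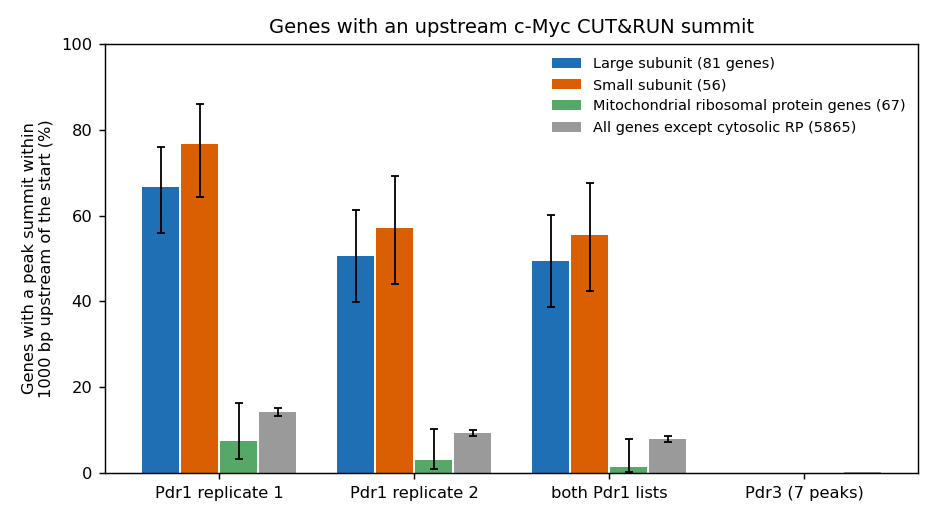
Share of genes (%, vertical axis) with a peak summit within 1000 bp upstream of the annotated start, for each list and for both Pdr1 lists together; error bars are 95% Wilson intervals for counting error (none drawn for Pdr3). Large and small subunit genes reached 49.4 and 55.4% in both Pdr1 lists, and the genes taken as mitochondrial RP genes by symbol 1.49%.

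Both subunits were represented. Over all protein-coding genes the shares with a summit were 15.5% in replicate 1, 10.2% in replicate 2 and 8.95% in both lists. Of the large subunit genes, 54 of 81 had a summit in replicate 1 (66.7%, Wilson interval 55.9 to 76.0%), 41 in replicate 2 (50.6%, 40.0 to 61.2%) and 40 in both (49.4%, 38.8 to 60.0%). Of the small subunit genes, 43 of 56 had one in replicate 1 (76.8%, 64.2 to 85.9%), 32 in replicate 2 (57.1%, 44.1 to 69.2%) and 31 in both (55.4%, 42.4 to 67.6%). The small subunit share was the higher one in each list, and the intervals of the subunits overlapped in each. No test was run on this difference, because genes are not replicates. The median fold enrichment of the strongest upstream peak was 4.76 for the large and 4.60 for the small subunit in replicate 1, and 4.52 and 5.22 in replicate 2, so the order of the subunits differed between the replicates.

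The peaks upstream of RP genes were of ordinary height for these lists. In replicate 1, 96 peaks lay upstream of an RP gene, with a median fold enrichment of 4.62 (quartiles 3.55 and 5.59), and the other 696 peaks had a median of 4.90. In replicate 2 the median was 4.71 over 69 peaks (quartiles 4.00 and 5.77), and 4.87 over the other 416. RP gene peaks made up 12.1% of the replicate 1 list and 14.2% of the replicate 2 list. Of the 50 strongest peaks of each list, 3 were RP gene peaks. The highest fold enrichment of an RP gene was 12.3 in replicate 1, where the list as a whole reached 37.5.

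The 10 RP genes with the best mean of the within-list ranks included RPL17A, RPL40A, RPL43A, RPL33B, RPL14A, RPL34B and RPL27A of the large subunit, and RPS18B and RPS24B of the small subunit. All peak coordinates are in build R64, counted from 1.

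RPL17A (YKL180W) encodes a protein at the exit of the tunnel through which new peptides leave the ribosome. Its peak (chromosome XI, 108872 to 109124 in replicate 1) was 11.3-fold in replicate 1 and 5.77-fold in replicate 2. The peak upstream of RPL40A (YIL148W; chromosome IX, 68367 to 68594), whose product is made as a fusion to ubiquitin, was 10.1-fold and 5.92-fold, with the summit at base 68422 in both lists. RPL43A (YPR043W; chromosome XVI, 653868 to 654066) had values of 8.40-fold and 5.65-fold, and its summits lay 1 bp apart. In these 3 genes replicate 1 gave the higher value.

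The other named genes of the leading group ranged in replicate 1 from 5.34-fold (RPS24B) to 7.13-fold (RPL27A), and in replicate 2 from 5.0-fold (RPL27A) to 8.46-fold (RPS24B). RPS24B and RPL27A, at the ends of both ranges, thus traded places between the replicates. The 5 genes at the bottom of the mean ranking included RPL16A, RPS19B, RPS4B and RPL32. RPL32 (YBL092W) was last, with 2.66-fold (rank 764) and 2.99-fold (rank 453). Its −log10 q was 8.06 and 6.13, and both lists ended at a −log10 q of 5.05.

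The counts by position in the ribosome can be read against 51.8% of all RP genes, and 8.95% of all genes, with a summit in both lists. The classes hold few genes and were not tested against each other. They were drawn from general knowledge of ribosome structure after the lists had been seen, and their counts only describe. All 4 listed genes for proteins near the peptidyl transferase centre, where peptide bonds form, had a summit in both lists: RPL2A, RPL2B, RPL3 and RPL10. RPL10 (YLR075W) had fold enrichments of 5.11 and 4.02. RPL3 (YOR063W) had 2.88 and 6.40, with the summit at the same base, 822 bp upstream of the start, nearer to the divergent gene YOR062C than to RPL3.

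Around the exit of the peptide tunnel, 9 of 12 genes were in both lists. RPL25, which also takes part in docking of the signal recognition particle, was in replicate 1 alone (4.79-fold), and both copies of RPL35 had no summit. RPL26A and RPL26B were both present, at 3.25-fold and 5.25-fold in replicate 1 and 6.10-fold and 3.87-fold in replicate 2. The higher copy was B in replicate 1 and A in replicate 2.

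Of the 7 genes for the stalk, the flexible arm that recruits translation factors, RPL12A, RPL12B and RPP2A were in both lists. RPL12A had fold enrichments of 5.48 and 3.09, RPL12B 5.33 and 2.58, and RPP2A 4.71 and 5.92. RPP1B was in replicate 1 alone (3.97-fold). The stalk base gene RPP0, RPP1A and RPP2B had no summit in either list. Of the proteins that bind 5S rRNA, RPL5 and RPL11A had none, and RPL11B had one in replicate 1 alone (4.07-fold).

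Among the 3 genes whose products are made joined to ubiquitin, RPL40A was in both lists, and RPL40B and RPS31 in neither. Among 3 genes in which mutations are known to give resistance to cycloheximide, an inhibitor of translation, RPL42A (7.27-fold and 4.00-fold) and RPL42B (7.89-fold and 3.49-fold) were in both lists. RPL28 was in neither.

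On the small subunit, the genes for proteins at the messenger RNA entry were RPS2, RPS3, RPS30A and RPS30B. Both copies of RPS30 were in both lists, at 2.70-fold and 3.29-fold in replicate 1 and at 6.52-fold and 5.73-fold in replicate 2. RPS3 (6.69-fold) and RPS2 (3.76-fold) were in replicate 1 alone. The genes at the messenger RNA exit included RPS26A in both lists (4.63-fold and 4.05-fold), RPS14A and RPS26B in replicate 1 alone, and RPS14B in neither. Not all genes of this class are named.

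Of all 6002 genes, 4995 had no summit upstream in either Pdr1 list. No summit lay upstream of 38 of the 137 RP genes in either list. For the large subunit these included RPL1A, RPL4A, RPL5, RPL7A, RPL7B, RPL8A, RPL9A, RPL9B, RPL11A, RPL14B, RPL15A, RPL18B, RPL21B, RPL22A, RPL22B, RPL28, RPL35A, RPL35B, RPL36A, RPL37B, RPL40B, RPL43B, RPP0, RPP1A and RPP2B. For the small subunit they were RPS10B, RPS13, RPS14B, RPS20, RPS21A, RPS22B, RPS27A, RPS28A, RPS28B, RPS29A, RPS29B and RPS31. The space between the start and the next gene upstream had a median of 510.5 bp (quartiles 356 and 796 bp) for these 38 genes, and of 669 bp (556 and 802 bp) for the 71 genes in both lists. Whether the length of this space has a part in the result was not tested.

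The A and B copies were compared over 59 pairs. A copies and B copies were counted about equally often: 43 A copies and 41 B copies had a summit in replicate 1, 32 and 33 in replicate 2, and 32 and 31 in both lists. Over all protein-coding genes the shares with a summit were 15.5, 10.2 and 8.95%. In replicate 1 both copies had a summit in 33 pairs, the A copy alone in 10, the B copy alone in 8 and neither in 8. In replicate 2 the same counts were 22, 10, 11 and 16. Requiring both lists gave 22, 10, 9 and 18. With equal numbers of peaks the 22 pairs fell to 8, and with a −log10 q of at least 10 to 10.

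**Figure D2:**
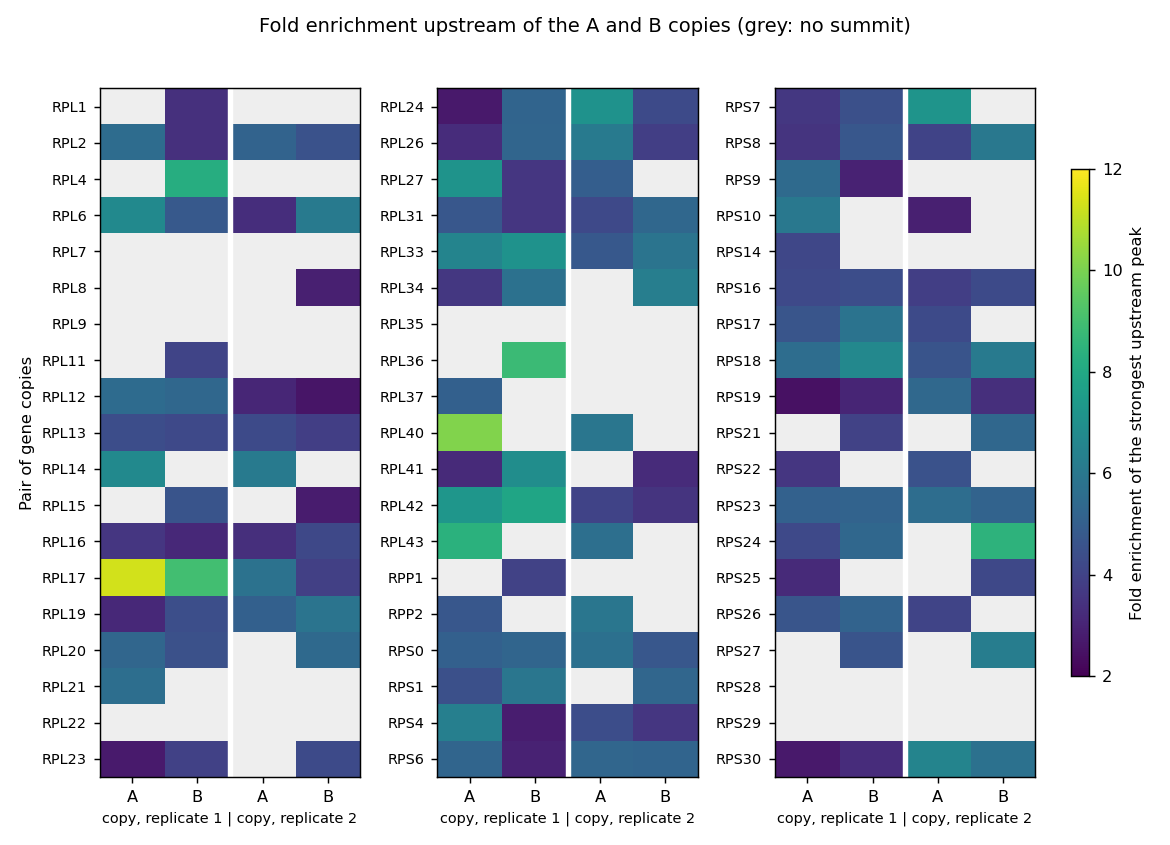
Fold enrichment (colour scale) of the strongest peak upstream of the A and B copy of 57 pairs, in replicate 1 (left columns of each panel) and replicate 2 (right columns); grey cells had no summit. In 21 of the pairs drawn all 4 cells are filled, as for RPL17 and RPS30, and in 6, such as RPL35 and RPS29, none is.

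Where both copies had a peak, the ratio of the higher to the lower fold enrichment had a median of 1.27 over 33 pairs in replicate 1 (quartiles 1.14 and 1.61) and 1.22 over 22 pairs in replicate 2 (1.14 and 1.49). It was over 1.5 in 10 and 5 of them. Over all pairs of RP genes that are not copies of each other and do not share the peak, the median ratio was 1.41 in replicate 1 and 1.31 in replicate 2. Whether copies are closer in height than other RP genes was not tested. The A copy was the higher in 13 of 33 pairs in replicate 1 and in 14 of 22 in replicate 2. Among the 22 pairs with all 4 values, the same copy was higher in both replicates in 12 and the other copy in 10. The distance from summit to start differed between the copies by a median of 68 bp in replicate 1 and 75 bp in replicate 2.

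In 9 pairs 1 copy had a summit in both lists and the other copy in neither. The A copy was the one with a summit for RPL14, RPL40, RPL43, RPP2, RPS10 and RPS22, and the B copy for RPL15, RPS21 and RPS27. RPL14A (chromosome XI, 431415 to 431803) had 6.76-fold and 6.09-fold peaks with the summit at base 431610 in both lists. RPS27B had 4.61-fold and 6.22-fold peaks, and RPS21B 3.97-fold and 5.34-fold. RPS10A had 6.01-fold and 2.90-fold peaks. RPL15B had 4.59-fold and 2.78-fold peaks, whose summits lay 637 and 683 bp upstream of its start, inside the neighbouring gene YMR122C. In all 9 pairs the summits in both lists also lay upstream of another gene, so none can be given to the RP copy alone. The other gene was SFT1 for RPL14A, MLP2 for RPL40A, PUF2 for RPL43A and YOR292C for RPS10A. It was NCW1 for RPL15B, LCB3 for RPS21B and ECM12 for RPS27B. The RPS22A peak (3.60-fold and 4.51-fold) also lay upstream of RPL39, and the RPP2A peak upstream of RPS15.

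The summits upstream of RP genes kept to a narrow range of distances. In replicate 1 the median distance to the start was 266 bp (quartiles 220 and 382 bp), against 399.5 bp (286 and 593 bp) for the 834 other genes with a summit upstream. In replicate 2 it was 303 bp (253 and 363 bp), against 439 bp (319 and 647 bp) for 540 other genes. The space to the next gene upstream also differed, with medians of 669 bp for RP genes and 826 bp for other genes in both lists. Its part in these distances was not tested. The other genes include those that share an RP gene peak, as 51 of 96 such peaks in replicate 1 and 40 of 69 in replicate 2 were shared. The share of RP genes with the summit 150 to 450 bp upstream was 83.5% in replicate 1 and 79.5% in replicate 2, and that of the other genes 52.9% and 48.7%. No RP gene had its summit within 100 bp of the start, and few other genes did. Of the other genes, 0.72% had it at 1 to 50 bp and 1.44% at 51 to 100 bp in replicate 1. In replicate 2 these shares were 0.93 and 1.11%. The nearest RP gene summit was 141 bp away in replicate 1 (RPS23B) and 130 bp away in replicate 2 (RPS30A).

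**Figure D3:**
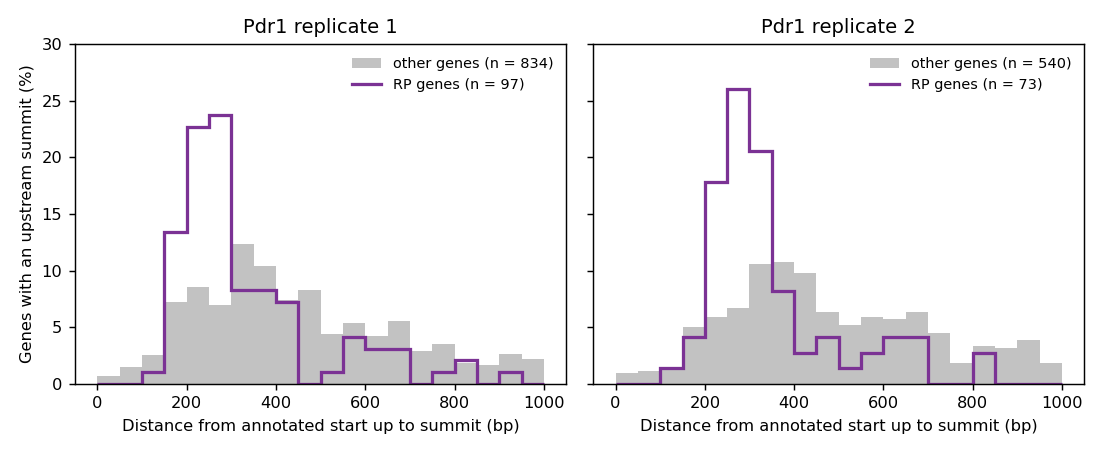
Distance (bp, horizontal axis, bins of 50 bp) from the annotated start up to the summit of the strongest upstream peak, as the share of genes with such a summit (%, vertical axis), for RP genes (line) and all other genes (grey). The tallest RP bin is 251 to 300 bp in both replicates, with 23.7 and 26.0% of the RP genes.

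The subunits were alike in this measure, with medians of 264.5 bp (large) and 267 bp (small) in replicate 1 and of 295 and 312 bp in replicate 2. Taking the summit nearest to the start, counting each summit once, or ending the window at the neighbouring gene each moved the medians by less than the difference between the replicates. At the edge of the window, the farthest summit counted was that of RPS0A, 920 bp upstream in replicate 1 (5.08-fold). The nearest one left out was 1030 bp upstream of RPL9B in replicate 1 (5.58-fold).

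Many of these peaks cannot be given to the RP gene alone. In replicate 1, 58 of the 97 RP genes had a summit that also lay upstream of another protein-coding gene, as did 49 of the 73 in replicate 2. The share among other genes with a summit is not given here, so this sharing is not read as particular to RP genes. For 4 and 3 RP genes the summit lay inside a neighbouring gene. The upstream neighbour was divergent for 77 RP genes, of which 43 were in both lists (55.8%, Wilson interval 44.7 to 66.4%), and tandem for 60, of which 28 were (46.7%, 34.6 to 59.1%). For the other genes these shares were 9.50 and 6.29%. RP genes of both arrangements thus held peaks.

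In each replicate 5 peaks lay between a divergent pair of RP genes and were counted for both. RPL13A and RPS16B shared a peak on chromosome IV (307872 to 308258; 4.38-fold and 4.26-fold), and their copies RPL13B and RPS16A shared one on chromosome XIII (551298 to 551781; 4.21-fold and 3.85-fold). This arrangement is thus present in both copies, with values close to each other. RPS15 and RPP2A shared a peak on chromosome XV (253693 to 254214; 4.71-fold and 5.92-fold). RPS22A and RPL39 shared one on chromosome X (75436 to 75811; 3.60-fold and 4.51-fold). RPL24A and RPL30 shared one on chromosome VII (438546 to 438850), with 2.67-fold and 7.10-fold, the most unequal replicate values of any RP gene in both lists.

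The replicates agreed on where the peaks lay. Of the 73 RP genes in replicate 2, 71 (97.3%) were also in replicate 1, and of the other genes in replicate 2, 86.3% were. The exceptions were RPL8B (2.87-fold) and RPS25B (4.17-fold). In the other direction 73.2% of the 97 replicate 1 RP genes were also in replicate 2, against 55.9% of the other genes. The strongest peaks overlapped for 70 of the 71 genes, the exception being RPS0A, and a weaker replicate 1 peak of RPS0A did overlap. The median gap between the paired summits was 33 bp (quartiles 8 and 62.5 bp). For the 466 other genes in both lists the median gap was 29 bp, and 79.6% had summits within 100 bp of each other. The paired summits of the RP genes lay within 100 bp of each other for 60 genes (84.5%). For RPL3, RPL14A, RPL31A, RPL33B, RPL40A and RPS26A they were at the same base. The largest gap, 563 bp, was at RPS4A.

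The replicates did not agree on how high the peaks were. Across the 71 genes, Spearman's rho of fold enrichment between the replicates was -0.01, and that of −log10 q was 0.34. Counting each replicate 1 peak once, over 66 genes, gave 0.006 and 0.37. Across the 466 other genes in both lists the rho values were 0.36 and 0.55. These coefficients are across genes of 1 pair of lists and carry no test, since genes are not independent replicates. Fold enrichment of the RP genes also spanned a smaller range, up to 11.3 in replicate 1 against 37.5 for the other genes. The order of RP genes by fold enrichment in 1 replicate is therefore given here as a description only.

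**Figure D4:**
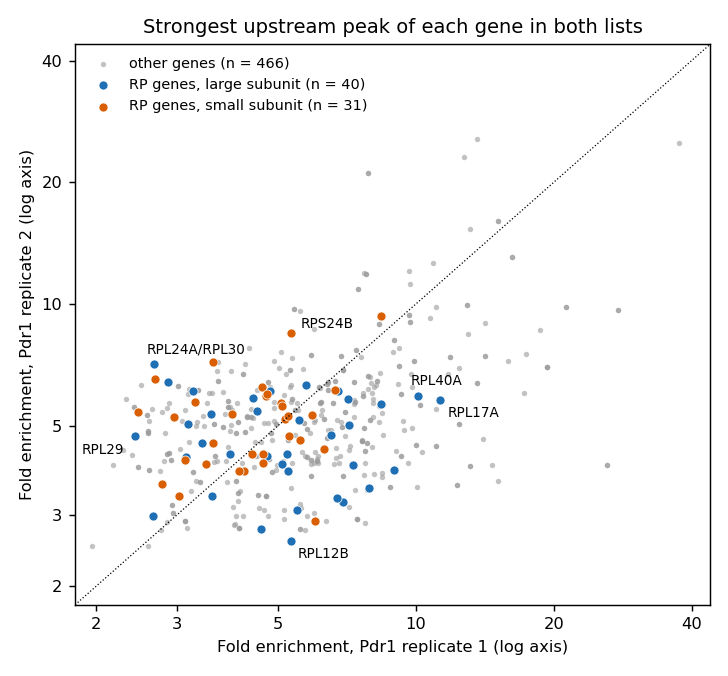
Fold enrichment of the strongest upstream peak in replicate 1 (horizontal, log axis) and replicate 2 (vertical, log axis) for the 71 RP genes in both lists, by subunit, and for 466 other genes (grey); the dotted line marks equal values. RP genes lie on both sides of the line, 34 with the higher value in replicate 1 and 37 in replicate 2, and none reaches the upper right corner.

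Of all 6002 genes, 931 had a summit in replicate 1 and 537 in both lists. RP genes found in replicate 1 alone numbered 26, of which 14 belong to the large and 12 to the small subunit. Their replicate 1 peaks had a median −log10 q of 13.1 (range 5.28 to 56.2), and those of the 71 genes in both lists a median of 20.6 (lowest 6.75). The medians of fold enrichment were 4.43 and 4.71. Some of the strongest RP gene peaks of replicate 1 were in this group. RPL38 (YLR325C; chromosome XII, 781525 to 781728) had the highest fold enrichment of any RP gene, 12.3, at rank 30, and no summit in replicate 2. RPL36B (YPL249C-A; chromosome XVI, 76306 to 76641) had 8.82-fold and RPL4B 8.22-fold, also with none in replicate 2.

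Other genes of translation were counted in the same way. Of 10 genes for elongation factors, 7 had a summit in replicate 1 (15.5% of all genes) and 6 in both lists (8.95% of all genes). Those in both included TEF1 and TEF2, which encode elongation factor 1 alpha (5.36-fold and 7.36-fold, and 2.42-fold and 5.54-fold). The others were EFT2 for elongation factor 2 (5.61-fold and 4.57-fold), CAM1 (7.72-fold and 4.31-fold), and HYP2 and ANB1 (5.68-fold and 5.07-fold, and 6.14-fold and 6.22-fold). Peaks of the same fold enrichments in both lists also lay upstream of TKL2 (as for TEF2), ATO3 (EFT2), DIG1 (CAM1), ANP1 (HYP2) and CYC1 (ANB1). In replicate 1 the summits lay 831 bp (EFT2), 618 bp (HYP2), 594 bp (ANB1), 374 bp (TEF1), 308 bp (TEF2) and 230 bp (CAM1) upstream. The lists for initiation factors (10 genes), ribosome assembly factors (17) and dedicated chaperones of ribosomal proteins (6) were short and picked by hand. None of their genes had a summit in either Pdr1 list (16.8% of all genes). Assembly factor genes outside the list were not counted, and UTP22, for example, had a summit in both lists (9.14-fold and 6.33-fold). Mitochondrial RP genes, for the ribosome of the organelle, were taken by symbol alone (MRPL, MRPS, MRP or RSM with a number). Of these 67 genes, 5 had a summit in replicate 1 (7.46%) and 1, RSM10, in both lists (1.49%). Peaks of the same fold enrichments as for RSM10 also lay upstream of ENA1. The symbol rule does not check function and misses genes of other names, such as YML6, which had a summit in both lists (4.64-fold and 4.25-fold).

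Among 8 genes for regulators of RP transcription, 2 had a summit in both lists (8.95% of all genes). They were HMO1 (3.79-fold and 4.95-fold) and SFP1 (5.29-fold and 6.88-fold), the latter with its summits 928 and 924 bp upstream. Peaks of the same fold enrichments in both lists also lay upstream of ARG82 (as for HMO1) and DUS3 (as for SFP1). RAP1, FHL1, IFH1, CRF1, ABF1 and SCH9 had none. None of these lists was tested against other genes.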

How the data were processed

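CUT&RUN peak lists of 3 c-Myc libraries were used, 2 for Pdr1 and 1 for Pdr3, grouped by sample title. Per the submitters' processing notes, the tools were Trimmomatic 0.33, Bowtie2, Picard, deepTools and MACS2 2.1.1, and the build R64 (sacCer3). Tool settings and the use of IgG and spike-in reads are not stated there. The deposited narrowPeak lists have no header. The deposited signal value was read as a fold enrichment ratio on a linear scale, and the −log10 p and −log10 q as the authors' caller wrote them. The deposited score was not used, as in 100% of peaks it was the whole part of 10 times the −log10 q.

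Genes came from the RefSeq R64 table, with strand read from the systematic name. Each gene was given its upstream peak of highest fold enrichment. Assignment was checked on planted summits. Python 3.11.15, pandas 2.3.3 and SciPy 1.17.1 were used. No test was run across genes. Members, gene lists and alternatives were chosen with earlier results of these data known. Named genes were the 10 best and 5 worst by mean rank, copy pairs with opposite results, divergent pairs, genes with equal summits and genes with no summit. Genes named by role or as extremes were added after their values were seen. A few genes and the values that rest on them are not reported here. Motif searches were not run, because no sequence was used here.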

Additional observations from a re-analysis of the deposited data

How the results depend on the processing

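Of 114 recomputed values of 19 results, 84 stayed within the Wilson interval of the reported share, within 1.5 times the reported count, or within 1 SD of the replicates, and 30 did not. Among peaks whose −log10 q reached 10, the share of RP genes with a summit fell to 56.9% in replicate 1 (large subunit 55.6%, small subunit 58.9%), 40.9% in replicate 2 (large subunit 37.0%) and 35.8% in both lists (large 32.1%, small 41.1%), pairs with both copies fell to 10, and the median fold enrichment was 5.09 and 5.32; all genes gave 12.3, 8.18 and 6.63%. With 500 bp upstream the shares were 59.9% in replicate 1 (small subunit 62.5%) and 43.1% in both lists (all genes 10.8 and 5.28%), and the replicate 2 median 4.87-fold. With equal numbers of peaks, replicate 1 gave 40.1% (large 38.3%, small 42.9%) and both lists 29.9% (large 29.6%, small 30.4%), 41 genes, 8 pairs with both copies and 28 with neither, and a replicate 1 median of 5.44-fold. These settings remove peaks or shorten the window by construction. Ending the window at the neighbouring gene moved the replicate 1 median to 4.71-fold, and the cause was not tested. Leaving out 1 Pdr1 replicate gave 53.3 to 70.8% of RP genes (large 50.6 to 66.7%, small 57.1 to 76.8%) and 8 to 16 pairs with neither copy.

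No paired analysis was possible because the Pdr1 and Pdr3 peak lists share fewer than 2 replicate numbers and no IgG peak list was among the files used here. The planned motif alternatives were not run, since no sequence was used here. Read depth is unknown, so a missing peak cannot be told apart from one under the authors' threshold.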

Other observations

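No peak of any of the 3 lists overlapped an annotated RP gene. Over all protein-coding genes only summits were counted, with 114 in replicate 1 and 58 in replicate 2 inside some gene. RP genes hold 1.15% of the length of all gene models, so few would fall inside them in any case. The absence is therefore not read as a trait of RP genes. The edge of the upstream peak nearest to the RP gene lay a median of 127 bp from the start in replicate 1 (lowest 6 bp) and 176 bp in replicate 2 (lowest 112 bp).

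Among RP genes, the share in both lists was 3 of 9 where the space to the next gene upstream was under 300 bp, 10 of 29 from 300 to under 500 bp, 36 of 52 from 500 to under 750 bp and 22 of 47 from 750 bp up. For the other genes the shares were 2.72, 2.87, 9.23 and 19.2%, highest in the class with the most space, which was not so for the RP genes. Neither pattern was tested.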
